A study of Mus musculus with 6 samples.

Results

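The annexin family was followed in the left ventricle of male C57BL/6 mice through 9 genes, Anxa1, Anxa2, Anxa3, Anxa4, Anxa5, Anxa6, Anxa7, Anxa8 and Anxa11. These were found as the probe sets whose only gene symbol on the array platform is 1 of those names, which gave 10 probe sets out of 35556. In all, 19938 genes had such a probe set. Anxa6 has a pair of probe sets and every other member has 1. Of the members, Anxa11 was picked on measured values, its lower signal in these knockout arrays, so its difference is given below as a description, with no test. The other 8 belong to the same family and were tested in the fit over all probe sets. The family and the gene lists below were chosen with earlier results of these data known.

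The comparison was between 3 Affymetrix arrays from MURC knockout mice and 3 from wild-type mice. The labels give the knockout mice ages of 11, 11 and 13 weeks and the wild-type mice ages of 13, 13 and 12 weeks. MURC is the muscle protein now called cavin-4, which coats caveolae, the small pits of the muscle cell membrane, and its gene is Cavin4. The sources used here do not give the allele, the cells in which it is deleted or whether each array is a separate animal. The p-values therefore measure only how these 6 arrays vary, which may be technical.

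Annexins are cytoplasmic proteins that bind membranes rich in acidic phospholipids, above all phosphatidylserine, when calcium rises. Their conserved core of annexin repeats holds the calcium-binding loops, and each member has its own amino-terminal tail, through which several bind S100 proteins or other partners. In striated muscle they are known for gathering at tears in the sarcolemma, where they help to reseal it. Anxa6 and Anxa5 are well known in heart muscle.

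Promoters are shown for 3 members that differ in what the arrays measured: Anxa11 and Anxa4, which had the 2 largest differences between genotypes, and Anxa2, whose genotypes overlapped. The sequences are those of RefSeq for GRCm38.p6, where 7 of the 9 members were matched, all but Anxa3 and Anxa6. Each is the 250 bases before the gene's start, read 5′ to 3′ on the gene's strand. Where several starts are listed, the outermost was taken. Capitals mark 3 motifs searched on both strands, the GC box GGGCGG, the CCAAT box CCAAT and the TATA box TATAAA.
Anxa11 promoter, chr14:25841905-25842154, + strand: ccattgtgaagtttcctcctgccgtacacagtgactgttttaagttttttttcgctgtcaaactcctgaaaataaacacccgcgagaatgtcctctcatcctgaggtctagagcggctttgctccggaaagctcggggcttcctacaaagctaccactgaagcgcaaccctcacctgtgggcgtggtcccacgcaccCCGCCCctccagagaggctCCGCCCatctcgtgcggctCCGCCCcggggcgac
Anxa4 promoter, chr6:86793585-86793834, - strand: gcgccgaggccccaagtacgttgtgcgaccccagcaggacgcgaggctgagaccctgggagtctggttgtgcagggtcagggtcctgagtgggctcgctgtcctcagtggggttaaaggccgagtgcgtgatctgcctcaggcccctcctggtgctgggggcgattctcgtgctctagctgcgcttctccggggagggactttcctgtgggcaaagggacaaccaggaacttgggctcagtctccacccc
Anxa2 promoter, chr9:69453433-69453682, + strand: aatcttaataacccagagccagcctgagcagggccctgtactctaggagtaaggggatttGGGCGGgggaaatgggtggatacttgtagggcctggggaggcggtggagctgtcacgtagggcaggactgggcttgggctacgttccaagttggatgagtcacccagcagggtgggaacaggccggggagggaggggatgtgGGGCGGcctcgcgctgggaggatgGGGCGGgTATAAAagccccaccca

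The Anxa11 promoter held 3 GC boxes in the part nearest the start, and neither of the other motifs. None of the 3 motifs was found in the Anxa4 window. The Anxa2 window held 3 GC boxes and 1 TATA box, and 1 of these GC boxes lies next to the TATA box without overlapping it. Among 32851 mouse promoters in the same table, 32.7% held a GC box, 33.8% a CCAAT box and 12.4% a TATA box, so each is common. A match describes the letters and is not a measured binding site. A GC box also stood before Anxa7. Whether these motifs bear on the differences between genotypes was not tested.

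Values are log2 signals of a probe set on each array, and probe sets are not compared with each other in level, because each binds its target with its own strength. The array medians lay between 4.60 and 4.71, and arrays correlated between 0.985 and 0.989 over all probe sets. Cavin4, the targeted gene, measured 5.38, 5.74 and 5.59 in knockout arrays, against 8.75, 8.62 and 8.07 in wild-type arrays, so each array followed its label. Ventricular heart muscle genes were bright in every array, with a mean log2 signal over 10 markers of 11.98 to 12.00 in knockout arrays, against 11.83 to 12.09 in wild-type arrays. Knockout replicate 2 stood apart in genes of atrial muscle. Its Myl7 signal was 7.22 against 3.61 to 4.11 in the other 5 arrays, and its Myl4 signal 8.67 against 5.41 to 5.61. Each main annexin difference is therefore also given without it.

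Anxa11 was the annexin with the largest difference. Its protein carries a long amino-terminal tail, binds the calcium sensor ALG-2 and is known for tethering RNA granules to moving lysosomes. Its signals were 8.05, 8.01 and 7.88 in knockout arrays, against 8.46, 8.44 and 8.37 in wild-type arrays. Every knockout array lay below every wild-type array, with a gap of 0.32 between the highest knockout and the lowest wild-type value. The means were 7.98 ± 0.09 and 8.42 ± 0.05 (SD, n = 3), a log2 difference of -0.44, or 1.36-fold lower. Without knockout replicate 2 the difference was -0.46. Of 16798 probe sets past the filter on dim signals with 1 symbol, 155 had a drop at least as large, with Anxa11 counted. A drop of this size was thus not limited to Anxa11.

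Anxa4, a core-type annexin with a short tail, was lower in the knockout by the next largest amount. It measured 7.02, 7.02 and 6.79 in knockout arrays, against 7.19, 7.19 and 7.25 in wild-type arrays. The genotypes did not overlap, and the lowest value, that of knockout replicate 3, pulled the knockout mean down. The means were 6.94 ± 0.13 and 7.21 ± 0.03 (SD, n = 3), a difference of -0.27 (95% interval -0.46 to -0.07), with an unadjusted p of 0.0139 and an adjusted p of 0.239 in limma. Anxa4 thus did not pass over all probe sets tested. The difference was -0.305 without knockout replicate 2 and -0.19 without knockout replicate 3.

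Anxa6, the large annexin with a doubled core that links the sarcolemma to the cytoskeleton, was the third member whose genotypes were apart. Its brighter probe set measured 9.23, 9.11 and 9.19 in knockout arrays, against 9.38, 9.31 and 9.29 in wild-type arrays. All 3 knockout arrays were below the wild type, by a gap of only 0.06. The means were 9.18 ± 0.06 and 9.33 ± 0.05 (SD, n = 3), a difference of -0.15 (95% interval -0.29 to -0.01, limma unadjusted p = 0.0364, adjusted p = 0.327). The dimmer probe set measured 4.74, 4.82 and 4.98 in knockout arrays, against 5.21, 5.06 and 4.96 in wild-type arrays. It differed in the same direction, by -0.23 (adjusted p = 0.422), but its genotypes overlapped by 0.02. Both probe sets read 1 gene and are not separate evidence. Without knockout replicate 2 the brighter probe set differed by -0.12.

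**Figure D1:**
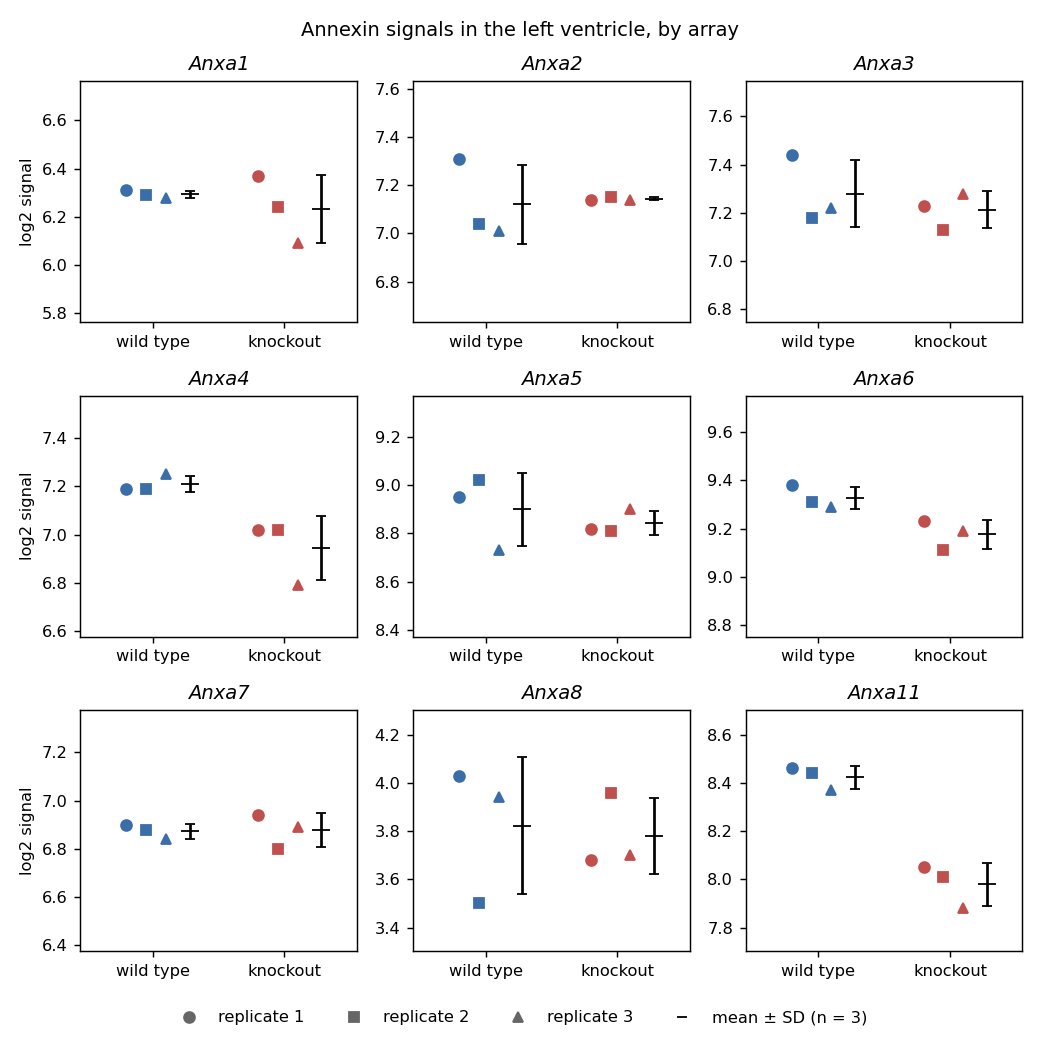
Log2 signal (vertical axis, 1 log2 unit tall in each panel) of the 9 annexin genes in wild-type (blue) and knockout (red) arrays, with the replicate as the marker shape and the mean ± SD (n = 3) beside it. The knockout points of Anxa11, Anxa4 and Anxa6 lie below all wild-type points, and those of the other 6 genes overlap.

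Anxa1, Anxa2 and Anxa3, known from the cell surface and from white blood cells, did not separate the genotypes. Anxa2, which pairs with S100a10 at the cell surface and beneath the membrane, measured 7.14, 7.15 and 7.14 in knockout arrays, against 7.31, 7.04 and 7.01 in wild-type arrays. The knockout values sat inside the wild-type range, and the difference was 0.023 (95% interval -0.19 to 0.24, limma adjusted p = 0.942). Anxa1, the glucocorticoid-induced annexin that signals through formyl peptide receptors, measured 6.37, 6.24 and 6.09 in knockout arrays, against 6.31, 6.29 and 6.28 in wild-type arrays. Its knockout arrays straddled the tightly grouped wild-type arrays, with a difference of -0.06 (95% interval -0.27 to 0.15, limma adjusted p = 0.824). Anxa3, known from neutrophil granules and from blood vessel growth, measured 7.23, 7.13 and 7.28 in knockout arrays, against 7.44, 7.18 and 7.22 in wild-type arrays. Only wild-type replicate 1 stood above the knockout range, and the difference was -0.067 (95% interval -0.28 to 0.14, adjusted p = 0.803).

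Anxa5, whose protein is the standard probe for phosphatidylserine on dying cells, measured 8.82, 8.81 and 8.90 in knockout arrays, against 8.95, 9.02 and 8.73 in wild-type arrays. The wild-type arrays spread on both sides of the knockout, with a difference of -0.057 (95% interval -0.25 to 0.14, limma adjusted p = 0.823). Anxa7, once called synexin for its part in membrane fusion, measured 6.94, 6.80 and 6.89 in knockout arrays, against 6.90, 6.88 and 6.84 in wild-type arrays. Its difference was 0.0033, with a 95% interval of -0.16 to 0.17 (limma adjusted p = 0.99), the narrowest interval among the 6 members whose genotypes overlapped. Anxa8, an annexin of epithelia, was dim, at 3.68, 3.96 and 3.70 in knockout arrays, against 4.03, 3.50 and 3.94 in wild-type arrays, near the filter at 3.45. Its difference was -0.043 with an interval of -0.44 to 0.36, the widest of the members tested.

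Counted by the brighter probe set of each gene, 7 of the 9 members were below the wild type and 2 above, with a median difference of -0.06. Anxa11, picked for its drop, is among the 7, and without it the median was -0.058. The count below ranged from 5 to 8 over the 16 alternatives, and was 5 without wild-type replicate 1. Over all probe sets tested the median was -0.037, and 59.1% were below the wild type. Among those with 1 symbol, as the members have, the median was -0.043. All 9 members passed the filter, which kept 24898 probe sets. Of the 8 members other than Anxa11, 2 were lower with genotypes apart, or 25%, where 12.9% of all probe sets tested were. No member was higher with genotypes apart, and among all probe sets 6.12% were. With wild-type replicate 1 left out, Anxa2 was higher with genotypes apart, by 0.12. Of the 8, 2 had an unadjusted p under 0.05, both lower, where 9.02% of all probe sets were lower and 4.71% higher at that threshold. By number these were 2245 and 1172, against 1965 and 785 among annotated probe sets only. After quantile normalization that split over all probe sets was nearly even, with 1767 lower and 1685 higher. It was also nearly even without wild-type replicate 1, with 1562 lower and 1556 higher. The median over all probe sets was then -0.01. None of the 8 passed the adjusted threshold of 0.05 in limma, which 0.00402% of all probe sets passed. That is 1 probe set, that of the targeted gene Cavin4 (limma adjusted p = 0.012). With so few genes, these shares do not set the family apart from the rest of the array.

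**Figure D2:**
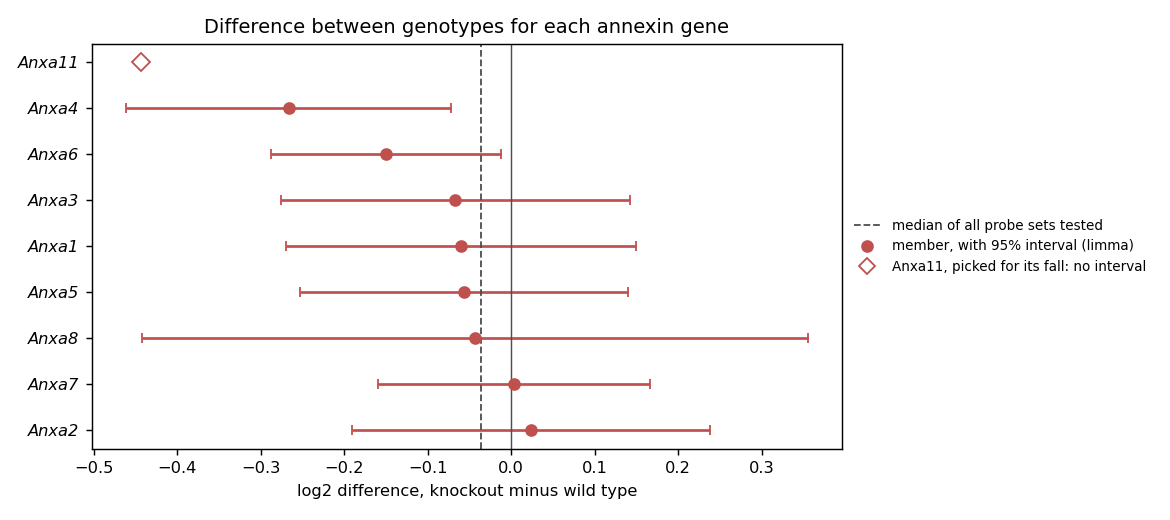
Log2 difference, knockout minus wild type (horizontal axis), for each annexin gene, with 95% intervals from limma (n = 3 arrays a group). The dashed line is the median of all probe sets tested, at -0.037. Anxa4 and Anxa6 have intervals below 0, and Anxa11 is drawn without an interval because it was picked for its difference.

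The 9 genes lie on several chromosomes, and none shares chromosome 4 with Cavin4. Anxa7, Anxa8 and Anxa11 are all on chromosome 14. The part of chromosome position in the annexin differences was not tested. The remaining mouse annexins on the array, Anxa9, Anxa10 and Anxa13, were dim. Anxa9 measured 2.93 ± 0.06 in knockout arrays, against 2.91 ± 0.27 in wild-type arrays, and Anxa10 2.51 ± 0.14 and 2.38 ± 0.04, both under the filter (SD, n = 3). Anxa13 was just above it, at 3.94 ± 0.09 and 3.91 ± 0.15, with an adjusted p of 0.95 in limma.

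Genes that work with annexins were read from 5 lists with 57 genes, of which 50 had a named probe set and all 50 passed the filter. They were evenly split, 25 higher and 25 lower in the knockout, with a median of 0.0034. Genotypes were apart for 6 lower genes, or 12%, and for 3 higher genes, or 6%, close to the shares over all probe sets. None passed the adjusted threshold in limma, where the smallest adjusted p was 0.152. The 6 lower genes with genotypes apart were also the 6 with an unadjusted p under 0.05, again 12%. None was higher at that threshold, where over all probe sets 9.02% were lower and 4.71% higher.

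ALG-2, the product of Pdcd6, is the calcium sensor that binds the tail of Anxa11, and its partners were measured as a list of 8 with lysosome tethering genes. Of these 3 were higher and 5 lower, and 2 of the lower ones had an unadjusted p under 0.05. At that threshold 9.02% of all probe sets were lower. Pdcd6ip, which encodes the ALG-2 binding protein Alix of the membrane repair and budding machinery, measured 8.54, 8.60 and 8.48 in knockout arrays, against 8.66, 8.80 and 8.82 in wild-type arrays. The genotypes were apart, with a difference of -0.22 (limma adjusted p = 0.234). Sec31a, an outer coat subunit of the vesicles that leave the endoplasmic reticulum, also had genotypes apart, at 8.88 ± 0.10 and 9.05 ± 0.08 (SD, n = 3, difference -0.17, adjusted p = 0.363). Tsg101, a budding factor that binds Alix, was also apart but higher, by a gap of 0.03 and with a difference of 0.13 (adjusted p = 0.439). Pdcd6 itself measured 7.38, 7.34 and 7.39 in knockout arrays, against 7.34, 7.28 and 7.34 in wild-type arrays. It differed by 0.05 with overlapping genotypes (adjusted p = 0.782).

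S100 proteins are small calcium sensors that bind annexin tails. Of 8 measured, 4 were higher and 4 lower, with a median of 0.0066 and no gene at an unadjusted p under 0.05. S100a10, the partner of Anxa2, measured 7.99, 7.94 and 8.24 in knockout arrays, against 7.89, 7.79 and 7.88 in wild-type arrays. All knockout arrays were above the wild type, by a gap of 0.05, with a difference of 0.20 (limma adjusted p = 0.38). S100a6 and S100a4 differed by 0.15 and 0.12 with overlapping genotypes. S100a11, the partner of Anxa1, differed by 0.03 (adjusted p = 0.876).

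Membrane repair genes were followed because resealing is where annexins are best known in muscle. Of 16 measured, 8 were higher and 8 lower, with a median of -0.013, and 3 lower genes had an unadjusted p under 0.05. Over all probe sets 9.02% were lower at that threshold. Snap23, a fusion protein of the plasma membrane, measured 8.57, 8.60 and 8.67 in knockout arrays, against 8.99, 8.91 and 8.79 in wild-type arrays. Its genotypes were apart by 0.12, with a difference of -0.28 (limma adjusted p = 0.152), the smallest adjusted p of the 5 lists. Cav3, the muscle caveolin, differed by -0.28 as well (adjusted p = 0.213), and the calpain subunit gene Capns1 by -0.17 (adjusted p = 0.324). Dysf and Trim72, which encode the repair proteins dysferlin and MG53, differed by -0.073 and 0.027, and both overlapped between genotypes.

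Phosphatidylserine is the lipid that annexins bind, and 13 genes of its exposure and recognition were measured. Of these 7 were higher and 6 lower, with a median of 0.02. Tmem30a, the subunit that flippases need to keep the lipid on the inner leaflet, measured 7.94 ± 0.11 against 8.11 ± 0.06 (SD, n = 3), a difference of -0.17 with genotypes apart (limma adjusted p = 0.363). The flippase gene Atp8a2 was also apart but higher, by a gap of 0.07 and with a difference of 0.28 (adjusted p = 0.369), and the scramblase gene Plscr1 differed by 0.23 with overlapping genotypes. The calcium-activated scramblase gene Ano6 differed by 0.037. In the list of formyl peptide receptors and the plasmin system, 5 genes were measured and none of the receptors was among them. Plau, Plaur and Plat, which encode plasminogen activators and the urokinase receptor, differed by 0.057, -0.047 and -0.043, all with overlapping genotypes.

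**Figure D3:**
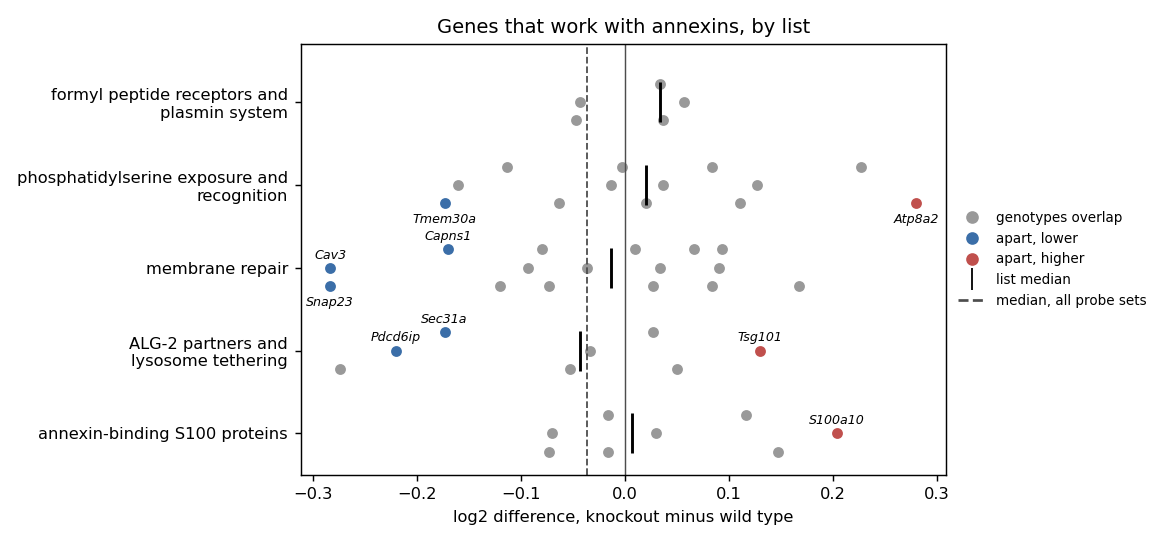
Log2 difference, knockout minus wild type (horizontal axis), of 50 genes in 5 lists of annexin partners, each point a gene and each black bar a list median. Blue and red points are genes whose genotypes did not overlap, 6 lower and 3 higher, and the dashed line is the median of all probe sets at -0.037.

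Several cell types of the ventricle express annexins, and fewer cells of a type and less RNA per cell cannot be told apart in whole tissue. Macrophage markers were lower in 7 of 8 genes, where 59.1% of all probe sets tested were below the wild type. Their mean log2 signal was 6.82 to 7.07 in knockout arrays, against 6.93 to 7.35 in wild-type arrays, so the ranges overlapped. Among them only C1qb had genotypes apart, with a difference of -0.51 (limma adjusted p = 0.14). Over all probe sets, 12.9% were lower and 6.12% higher with genotypes apart. Smooth muscle and pericyte markers were higher in 5 of 6 genes, with ranges of 7.14 to 7.21 and 6.98 to 7.07 that did not overlap. Of these, Myh11 and Tagln had genotypes apart, differing by 0.35 and 0.42 (limma adjusted p = 0.113 and 0.276). Fibroblast markers ranged from 7.81 to 7.96 and from 7.87 to 7.97, and endothelial markers from 8.36 to 8.45 and from 8.29 to 8.53. In these lists Dpt, Flt1 and Cldn5 had genotypes apart. They differed by 0.17, 0.16 and -0.40 (limma adjusted p = 0.329, 0.457 and 0.195). Mesothelial markers, of the heart's outer lining, were dim at 4.24 to 4.44 and 4.25 to 4.52. Of 6 neutrophil markers, S100a8, Ly6g and Cxcr2 were under the filter in these ventricles. Of the rest, S100a9 differed by 0.10 and Mpo by -0.11, both with overlapping genotypes. Csf3r differed by -0.31 with genotypes apart (limma adjusted p = 0.326). The part of these markers in the annexin differences was not tested.

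The genes with the array profile most like that of Anxa11 were taken as those with the smallest root mean square difference over the 6 arrays, after each gene was centred on its own mean. Among 14362 genes these were Srr at 0.039, Lap3 at 0.042, Apoc3 at 0.044, Fblim1 at 0.044 and Med25 at 0.045. Srr encodes serine racemase, Lap3 a cytosolic leucine aminopeptidase, Apoc3 an apolipoprotein, Fblim1 a filamin-binding LIM protein of adhesion sites and Med25 a subunit of Mediator. Their differences between genotypes were -0.41, -0.46, -0.42, -0.38 and -0.37, and Apoc3 was dim, at 3.53 and 3.95. Since Anxa11 was picked for its difference, genes like it differ by construction. Among annexins Anxa4 was the closest, at 0.10, and 2.35% of the genes searched were as close or closer. Anxa6 followed at 0.16 with 12.5%, and the other 6 members lay at 0.20 to 0.28. These distances reuse the contrast for which Anxa11 was picked, so the shares are a description and not a test.

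**Figure D4:**
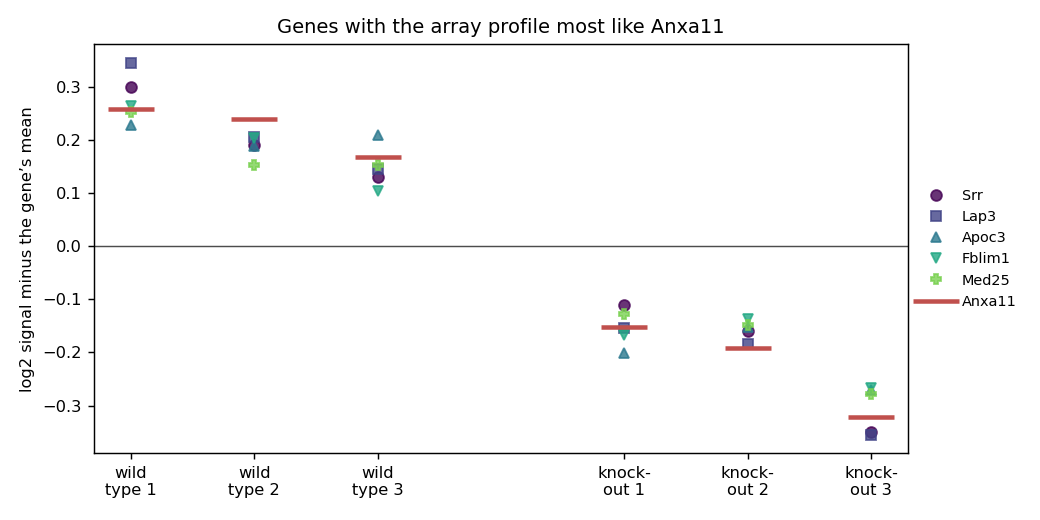
Log2 signal minus each gene's own mean over the 6 arrays (vertical axis) for Anxa11 (red bars) and the 5 genes with the most similar profile (points), by array. All 6 genes are above 0 in the wild-type arrays and below 0 in the knockout arrays, lowest in knockout replicate 3.

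In each of 16 alternatives Anxa11 had a larger drop than Anxa4, and Anxa4 a larger one than Anxa6. The filters, annotated probe sets only, no trend and the replicate block leave these differences unchanged, so they could not alter this order. Over these settings Anxa11 ranged from -0.49 to -0.39, Anxa4 from -0.37 to -0.19 and Anxa6 from -0.19 to -0.11. Under both other scalings the genotypes stayed apart for all 3. The adjusted p of Anxa4 ranged from 0.129 to 0.508 and that of Anxa6 from 0.29 to 0.569 in limma, so neither passed in any of them. The other 6 members changed sign in at least 1 alternative.

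**Figure D5:**
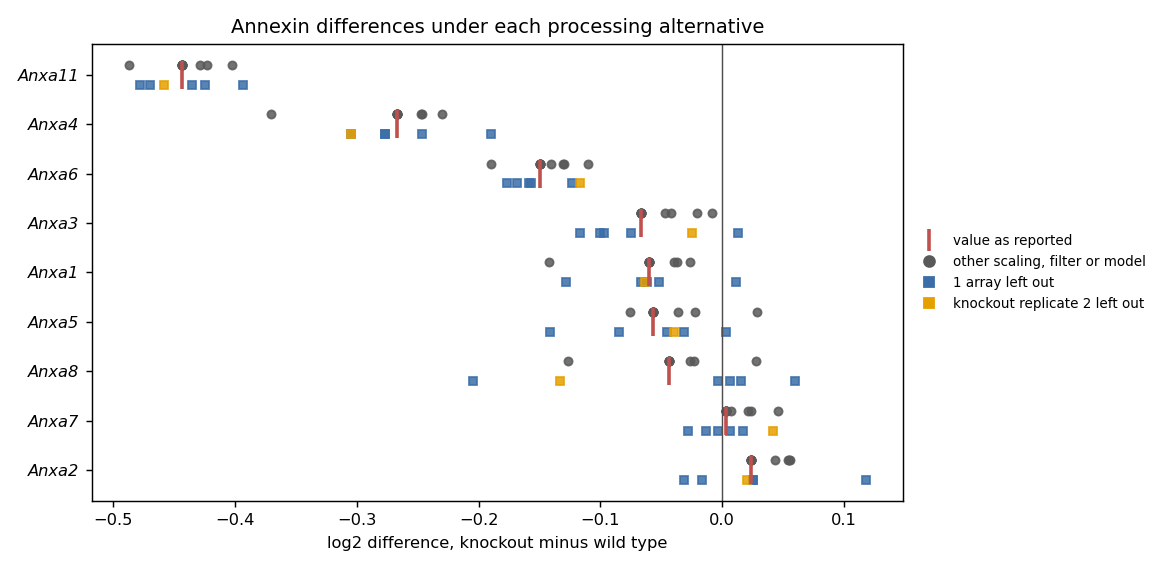
Log2 difference, knockout minus wild type (horizontal axis), of each annexin gene under 16 alternatives, with the reported value as a red bar, other scalings, filters and models as grey circles and 1 array left out as squares (orange for knockout replicate 2). Anxa11, Anxa4 and Anxa6 stay below 0, and the other 6 genes have points on both sides of it.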

How the data were processed

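Left ventricular RNA for 6 arrays was extracted with TRIzol and labelled with biotin from 100 ng, per the labels' protocols. The authors deposited 1 table of log2 values for 35556 probe sets. MAS5 is named in the submitters' processing notes without a role or version, and the sources used here do not give the summarization, background correction, scaling or genome build. That the scale is log2 was settled from the values, which ran from 0.46 to 13.72. They were used as deposited.

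Names came from the platform annotation (21789 with 1 symbol, 1621 with several, 12146 not listed), and 21698 of the probe sets with 1 symbol were matched to RefSeq by gene identifier. Counts of genes took the brightest probe set of each. Genotypes were compared as knockout minus wild type with limma 3.58.1 in R 4.3.3 (lmFit, eBayes with intensity trend, two-sided), over 24898 probe sets with a mean at or above the 30th percentile, and adjusted by the Benjamini-Hochberg method over all of them. The fit was tested on simulated data. The number of arrays limits the precision.

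The members and lists were chosen with earlier results of these data known. Named genes are the members, Cavin4, up to 3 genes of each list by smallest p and the 5 genes most like Anxa11. Pdcd6, S100a11, Dysf, Trim72 and Ano6 were named by role, after their values were seen. Marker genes were named by role or because their genotypes were apart, also after their values were seen. Alternatives were 2 scalings, 2 filters, annotated probe sets only, no trend, array weights, age, the replicate number as a block, averaging the probe sets of a gene and each array left out.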

Additional observations from a re-analysis of the deposited data

How the results depend on the processing

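Anxa11, Anxa4 and Anxa6 kept their direction in all 16 alternatives, but most of these could not reverse it. The filters, annotated probe sets only, no trend and the replicate block leave a difference unchanged. Averaging probe sets changes only that of Anxa6, whose probe sets were both lower. With genotypes apart, neither array weights nor leaving out 1 array can turn the sign. Only the 2 scalings and age could have done so. None of the 8 members other than Anxa11, which was not tested, passed the adjusted threshold in any alternative that tested it. With an array left out, Anxa11 ranged from -0.48 to -0.39. Of 143 member values under alternatives 13 had the other sign, 11 of them with an array left out. The 143 include the settings that leave a difference unchanged, so the share is higher among those that can change it. Array weights gave Anxa8 a difference of 0.028, and age as a covariate gave Anxa5 one of 0.028. With an array left out the differences ran from -0.13 to 0.012 for Anxa1, -0.032 to 0.12 for Anxa2, -0.12 to 0.013 for Anxa3, -0.14 to 0.0033 for Anxa5, -0.028 to 0.042 for Anxa7 and -0.21 to 0.06 for Anxa8, which the stricter filter left untested. The probe sets past the adjusted threshold numbered 1 as reported, 130 after quantile normalization, 105 after median centring, 48 with the stricter filter, 361 among annotated probe sets only, 126 with array weights, 34 with age as a covariate and 0 to 11 with an array left out, and the cause was not tested. Same-numbered samples did not deviate together (correlations of -0.06, 0.02 and -0.06), and with the replicate block 0 probe sets passed, with Anxa11 at -0.44, Anxa4 at an adjusted p of 0.316 and Anxa6 at 0.367 in limma.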

Other observations

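Wild-type replicate 1 had the highest array median, 4.71, and was the highest wild-type array for 7 of the 9 annexin genes, all but Anxa4 and Anxa5. Wild-type replicate 3 was the lowest for 6 of them. In the knockout no array stood out in this way: replicate 1 was the highest for 4 genes, and replicates 2 and 3 for 2 each. The mean log2 signal over the 9 genes was 7.16, 7.14 and 7.10 in knockout arrays, against 7.33, 7.21 and 7.21 in wild-type arrays. What these array differences contribute to the small annexin differences was not tested.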
